A study of Mus musculus with 12 samples.

Results

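Notum and the 6 glypicans, Gpc1 to Gpc6, were examined in inguinal white adipose tissue (iWAT) of mice given Notum from a viral vector. The genes were found by symbol in the table of read counts, which gave 7 genes of 54134. RNA-seq was available for 12 male C57BL/6J mice, 6 AAV-GFP and 6 AAV-Notum, each mouse a library of its own. All of them received an AAV8 vector by tail vein at 8 weeks of age, 1e12 genome copies per mouse, and the vector carried either GFP or mouse Notum behind the thyroxine binding globulin promoter, which drives expression in hepatocytes. The vector was not directed at adipose tissue. The mice were then kept on chow for 4 weeks and fasted for 4 h before collection at 84 days of age. The comparison asks whether Notum from the liver alters gene expression in iWAT, here of Notum itself and of the proteoglycans it was first linked to.

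Wnt ligands carry a fatty acid that they need for signalling. The enzyme Notum, released by cells, strips this lipid off and leaves the ligand inactive. Glypicans are heparan sulfate proteoglycans held on the outer cell surface by a glycosylphosphatidylinositol (GPI) anchor. They bind Wnt, Hedgehog, FGF and BMP ligands, and Notum itself associates with glypicans through their heparan sulfate chains. Gpc3 is best known as a binder of Hedgehog and a regulator of body size, and Gpc4 has been described as a glypican of adipocytes.

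The coding stretch around the active-site serine of Notum is shown because this residue carries the esterase activity. It is serine 239 of 503 in transcript Notum-202 of the GENCODE annotation vM21, and lies at the junction of exons 6 and 7, within chr11:120656724-120657521 of GRCm38 on the minus strand. The capitals mark the codons of the Gly-X-Ser-X-Gly motif typical of lipases and esterases.
Notum coding sequence: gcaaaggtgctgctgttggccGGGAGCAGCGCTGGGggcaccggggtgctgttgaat

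RefSeq promoter sequences of GRCm38.p6 were matched for 4 of the 7 members, Gpc2, Gpc3, Gpc4 and Gpc5. The 250 bases before the start site are shown for Gpc3, the glypican with the largest difference between the groups, and for Gpc5, which had no reads in any mouse. The Gpc3 stretch is chrX:52613975-52614224 on the minus strand and the Gpc5 stretch is chr14:115091965-115092214 on the plus strand. Capitals mark every GC box (GGGCGG) and TATA box (TATAAA), searched on both strands.
Gpc3 promoter: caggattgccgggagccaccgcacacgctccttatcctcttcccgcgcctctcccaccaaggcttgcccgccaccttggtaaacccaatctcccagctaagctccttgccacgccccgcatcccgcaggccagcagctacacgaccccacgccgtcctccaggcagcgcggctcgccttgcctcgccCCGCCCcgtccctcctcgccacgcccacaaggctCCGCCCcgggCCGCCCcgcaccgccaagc
Gpc5 promoter: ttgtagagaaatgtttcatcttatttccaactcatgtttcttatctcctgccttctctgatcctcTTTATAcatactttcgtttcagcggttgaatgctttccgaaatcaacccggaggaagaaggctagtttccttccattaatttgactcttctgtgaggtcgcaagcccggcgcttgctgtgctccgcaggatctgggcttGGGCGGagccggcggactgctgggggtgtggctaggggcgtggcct
The Gpc3 stretch held 3 GC boxes and no TATA box, with a GC content of 71.6%, and the Gpc5 stretch held 1 of each, with a GC content of 51.2%. Over all 32851 promoter windows of the same length, 32.7% held a GC box, 12.4% held a TATA box and the median GC content was 52.4%. The core motif of TCF/LEF factors (CTTTGAT, on either strand), the DNA motif of Wnt signalling, was in 3.21% of all windows and in none of the 4 windows of glypicans.

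Total counts per mouse ran from 15266635 to 21618860 in the AAV-GFP group and from 14711113 to 17838229 in AAV-Notum mice. The RNA integrity number was 5.7 to 7.6, and RNA was isolated 2 days after collection, except for AAV-GFP-2012 (22 days). The adipocyte markers Adipoq and Plin1 were abundant in every library, with Adipoq at 2194 to 5222 CPM (reads relative to the library size after TMM normalization). Other markers set some libraries apart. AAV-GFP-2011 and AAV-GFP-2014 had almost no lymphoid transcripts, with summed levels of the 15 lymphoid markers of 16.6 and 8.76 CPM against 362 to 2631 CPM in the other 10 mice. Hepatocyte transcripts also differed by mouse in both groups. Over all 15585 genes tested with edgeR's quasi-likelihood test, 8 genes were called lower in AAV-Notum mice at an adjusted p under 0.05, which is 0.0513%, and 0 were called higher.

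None of the 6 members tested was called at an adjusted p under 0.05 by edgeR, against 0.0513% of all genes. At an unadjusted p under 0.05 there were 3 of 6, Notum with a higher level and Gpc1 and Gpc3 with lower levels, where 4.64% of all genes were higher and 9.54% lower at this threshold. DESeq2, used as an alternative, called 1 of the 6, Notum, where it called 0.482% of all genes higher. No member had groups that did not overlap, which 1.09% of the tested genes had.

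Notum (ENSMUSG00000042988, chromosome 11, 120653788 to 120661175 of GRCm38, minus strand) was nearly absent from iWAT of most mice and high in a pair of AAV-Notum mice. AAV-GFP mice had 1 to 17 Notum reads, with a median of 3.5. AAV-Notum mice had 8 to 560 reads, with a median of 13. The high values were 560 reads in AAV-Notum-2032 and 433 in AAV-Notum-2041, together 993 of the 1036 Notum reads of the group. The other 4 AAV-Notum mice had 8 to 16 reads, within the range of the AAV-GFP mice. In CPM the level was 0.390 ± 0.399 in the AAV-GFP group and 9.75 ± 14.2 in the AAV-Notum group (SD, n = 6 each), and 2 of 6 AAV-Notum mice were above every AAV-GFP mouse. This gave a log2 fold change of 4.64 (standard error 1.32), with an adjusted p of 0.168 from edgeR and an exact permutation p of 0.0411 (two-sided, on mean log2 CPM), and all 6 AAV-Notum mice exceeded the mean of the AAV-GFP group. DESeq2 gave an adjusted p of 0.0087 for nearly the same log2 fold change, 4.66. The adjusted p ranged from 0.0087 to 0.722 over the alternatives. Without AAV-Notum-2032 and AAV-Notum-2041, a choice made once the values were known, the log2 fold change was 0.71 and the adjusted p was 0.722. Without AAV-GFP-2012, the mouse whose RNA was isolated later, it was 4.42, within the range of 3.90 to 5.17 that leaving out single mice gave, and those of Gpc3 and Gpc1 were -0.58 and -0.44.

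The Notum reads went with Apoa1 and the score of hepatocyte markers in the same library within each group. Apoa1, the main apolipoprotein of high density lipoprotein and a product of hepatocytes, was chosen for this display after its values were seen. In AAV-GFP mice the most Apoa1 reads were in AAV-GFP-2013 (7348 reads, with 17 of Notum) and AAV-GFP-2014 (2049 reads, with 13 of Notum). In AAV-Notum mice the most were in AAV-Notum-2041 (1115 reads, with 433 of Notum) and AAV-Notum-2032 (228 reads, with 560 of Notum). The remaining AAV-Notum mice had 6 to 40 Apoa1 reads. So the 2 mice with the most Apoa1 in each group were the 2 with the most Notum. The mean log2 CPM of 10 mesothelial and epithelial markers was also highest in these mice. It was -0.167 and -0.846 in AAV-GFP-2013 and AAV-GFP-2014, and -0.255 and -0.606 in AAV-Notum-2041 and AAV-Notum-2032. The score of adipose progenitor markers had r = 0.781 with Notum within AAV-Notum mice (exact permutation p = 0.0181) and -0.398 within AAV-GFP mice (0.475). Mice of like Apoa1 reads were picked after the values were seen. AAV-Notum-2031 had 9 Notum and 7 Apoa1 reads, and AAV-GFP-2011 had 2 and 9. The Apoa1 reads of AAV-Notum-2032 lay between those of AAV-GFP-2021 (127 reads, with 2 of Notum) and AAV-GFP-2022 (410 reads, with 5 of Notum). Per 1000 Apoa1 reads there were 2.31 to 222 Notum reads in AAV-GFP mice and 388 to 2456 in AAV-Notum mice. The top AAV-GFP value was that of AAV-GFP-2011, and the other AAV-GFP mice had at most 15.8. Both counts were under 10 in AAV-GFP-2011, AAV-Notum-2031 and AAV-Notum-2042, so their ratios are imprecise.

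**Figure D1:**
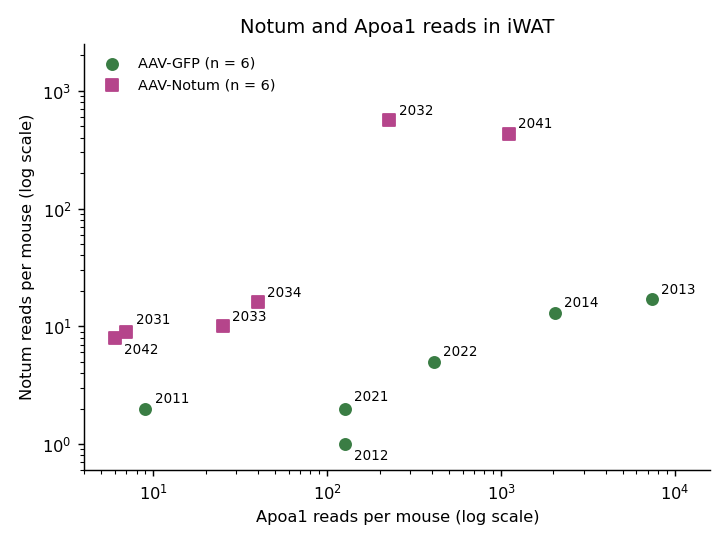
Notum reads (vertical axis, log scale) against Apoa1 reads (horizontal axis, log scale) in each of the 12 mice, labelled by mouse number, with circles for AAV-GFP and squares for AAV-Notum. In each group Notum is highest where Apoa1 is high, and AAV-Notum-2032 (560 reads) and AAV-Notum-2041 (433 reads) stand above all other mice.

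The whole list of hepatocyte markers was then used. The hepatocyte score, the mean log2 CPM of 20 markers, ran from -0.79 to 7.47 in the AAV-GFP group and from -0.48 to 4.91 in AAV-Notum mice, and 0 to 5 of the 20 markers were at 0 reads in a mouse. Their summed level was 2115 to 10860 CPM in the AAV-GFP group and 1588 to 7037 CPM in AAV-Notum mice. The sum did not follow the score, since AAV-Notum-2042 had the highest sum of its group and the lowest score, with Cyp2e1 alone at 6979 CPM. Of the 19 hepatocyte markers tested, 18 had a lower estimate in AAV-Notum mice, 3 of them at an unadjusted p under 0.05, and edgeR called 0. Within the AAV-GFP group, log2 CPM of Notum correlated with the score with Pearson's r = 0.902 (exact permutation p = 0.0167, n = 6) and Spearman's rho = 0.771 (exact permutation p = 0.103). Within the AAV-Notum group r was 0.936 (exact permutation p = 0.0111, n = 6) and rho was 0.886 (exact permutation p = 0.0333). These were 4 relations with those for Apoa1, and the adjusted p was 0.0167 for each r and 0.0666 to 0.103 for rho. Without the 2 mice farthest from the median score, r was 0.974 and 0.872. They were chosen after the values were seen, and this adjustment covers the 4 alone. A pooled r over both groups is not given, because the high AAV-Notum mice form a cluster of their own, and the pooled relation did not pass (permutation p = 0.233, adjusted p = 0.388 over the 30 relations of members with marker scores). With the hepatocyte score as a covariate, added once the values were known, the log2 fold change of Notum was 6.42 and edgeR's adjusted p was 0.0327. The part of hepatocyte RNA in these libraries in the Notum difference was not tested beyond these fits.

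Notum shares 708 exon bases with Notumos and 210 with Myadml2os, which are annotated on the opposite strand. These had at most 3 reads in any mouse. The reads recovered from the normalized table of the authors, which rests on another count, were fewer for Notum, 368 in AAV-Notum-2032 and 307 in AAV-Notum-2041, and at most 15 in the others.

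The glypicans of iWAT were led by Gpc4. As CPM per kb of annotated exon, the median over 12 mice was 19.1 for Gpc4, 4.83 for Gpc1, 1.86 for Gpc3, 0.517 for Gpc6 and 0.224 for Gpc2. This order held in 12 of 12 mice per kb. The range of Gpc4 (14.2 to 28.0) lay wholly above that of Gpc1, and that of Gpc3 (1.02 to 3.76) lay wholly above that of Gpc6. The ranges of Gpc1 and Gpc3 overlapped slightly, with the lowest Gpc1 value at 3.71, and so did those of Gpc6 and Gpc2. The level of Gpc4 was 2.66 to 6.38 times that of Gpc1 in the same mouse. Gpc4 made up 69.4% ± 4.6 (SD, n = 6) of the summed glypican level per kb in the AAV-GFP group and 72.8% ± 5.7 (SD, n = 6) in AAV-Notum mice.

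Notum had no fixed place in this order. Its level per kb was 0.0247 to 0.413 CPM in AAV-GFP mice, with a median of 0.0872, and it ranked 6 of 7, below every detected glypican, in 4 of the 6. In AAV-Notum mice it reached 12.2 CPM per kb, and in AAV-Notum-2032 and AAV-Notum-2041 it ranked 2 among the 7 members, behind Gpc4.

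**Figure D2:**
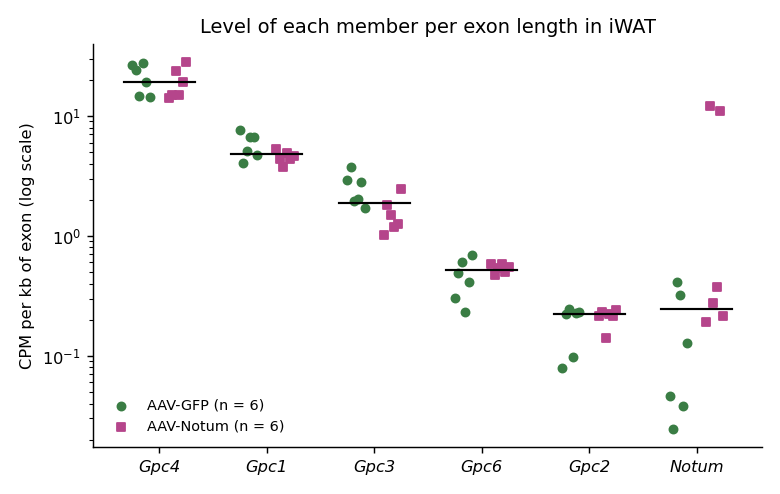
Level of each member in CPM per kb of exon (vertical axis, log scale) in each of 12 mice, circles for AAV-GFP and squares for AAV-Notum, with a line at the median over 12 mice. The medians fall from 19.1 for Gpc4 to 0.224 for Gpc2, and Notum spans from 0.0247 to 12.2 CPM per kb. Gpc5, at 0 reads in every mouse, is not drawn.

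Gpc5 (ENSMUSG00000022112, chromosome 14, 115092215 to 116525179) had 0 reads in 12 of 12 libraries. A count of 0 allows up to 3 reads, which is 0.139 to 0.204 CPM depending on the library, for counting error only. It was not tested.

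Gpc3 (ENSMUSG00000055653, chromosome X, 52272426 to 52613950, minus strand) had the largest difference among the glypicans. AAV-GFP mice had 4.56, 6.52 and 10.1 CPM as the lowest, median and highest values (74 to 170 reads). AAV-Notum mice had 2.74, 3.68 and 6.60 CPM (54 to 102 reads). All 6 AAV-Notum mice lay under the mean of the AAV-GFP group and 4 of 6 were below every AAV-GFP mouse, while AAV-Notum-2042 and AAV-Notum-2032 reached into the AAV-GFP range. The means were 6.81 ± 2.12 and 4.12 ± 1.42 CPM (SD, n = 6 each). The log2 fold change was -0.73 (standard error 0.25), the exact permutation p was 0.0216 and the adjusted p was 0.240 from edgeR and 0.102 from DESeq2. Leaving out single mice gave -0.91 to -0.58, with an unadjusted p under 0.05 in all 12 fits and an adjusted p of 0.114 to 0.476.

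Gpc3 was compared with the marker scores, and endothelial transcripts moved with it, as they did with Gpc4. Of the 8 endothelial markers, 7 had lower estimates in AAV-Notum mice, 3 of them at an unadjusted p under 0.05 and 0 called, and their summed level was 728 to 1215 CPM in the AAV-GFP group and 654 to 857 CPM in AAV-Notum mice, with none at 0. The endothelial score correlated with Gpc3 over 12 mice with r = 0.746 (permutation p = 0.00391, adjusted p = 0.0235 over 30 relations of members with marker scores) and rho = 0.741 (permutation p = 0.00777, adjusted p = 0.0532). Without the 2 mice farthest from the median score r was 0.645, and within the groups it was 0.722 in AAV-GFP mice (exact permutation p = 0.0750, n = 6) and 0.554 in AAV-Notum mice (exact permutation p = 0.265, n = 6). For Gpc4 the endothelial score gave r = 0.755 (permutation p = 0.00182, adjusted p = 0.0182) and rho = 0.804 (permutation p = 0.0025). Gpc3 also went with the adipocyte score (r = 0.640, permutation p = 0.0280, adjusted p = 0.0765) and, in the opposite direction, with the lymphoid score by rank (rho = -0.734, permutation p = 0.00886, adjusted p = 0.0532), where r was -0.515 (permutation p = 0.0896, adjusted p = 0.168). With the endothelial score as a covariate, added once the values were known, the log2 fold change of Gpc3 was -0.42 and the unadjusted p was 0.0979. In bulk tissue, fewer cells of a type and less RNA per cell cannot be told apart.

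Gpc1 (ENSMUSG00000034220, chromosome 1, 92831645 to 92860779, plus strand), the glypican found in most tissues, had a smaller difference in the same direction. AAV-GFP mice had 21.02, 30.4 and 39.3 CPM as the lowest, median and highest values, and AAV-Notum mice had 19.2, 23.3 and 27.5 CPM. Every AAV-Notum mouse lay under the mean of the AAV-GFP group, and 3 AAV-GFP mice were above every AAV-Notum mouse. The means were 30.04 ± 7.09 and 23.5 ± 2.84 CPM (SD, n = 6 each). The log2 fold change was -0.35 (standard error 0.15), with an adjusted p of 0.325 from edgeR and an exact permutation p of 0.0779. The unadjusted p was under 0.05 in 5 of the 12 fits that left out a mouse. Without AAV-GFP-2011 and AAV-GFP-2014, the mice with almost no lymphoid transcripts, the log2 fold change was -0.18 and the unadjusted p was 0.234. Gpc1 shares 977 exon bases with Ankmy1 on the opposite strand, which had 4 to 15 reads per mouse.

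Gpc4 (ENSMUSG00000031119, chromosome X, 52053021 to 52165252, minus strand) overlapped between the groups. It had 38.2, 57.1 and 73.4 CPM as the lowest, median and highest values in the AAV-GFP group and 37.6, 45.0 and 74.2 CPM in AAV-Notum mice. The estimate on the log2 scale was -0.14, with a 95% interval of -0.58 to 0.29 (normal approximation), an adjusted p of 0.731 from edgeR and an exact permutation p of 0.602. Gpc3 and Gpc4 lie 107173 bases apart with 0 protein-coding genes between them. Over 12 mice their levels correlated with r = 0.584 (permutation p = 0.0483, adjusted p = 0.145 over 15 pairs of members), which fell to 0.472 without the 2 mice farthest from the median of Gpc3.

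**Figure D3:**
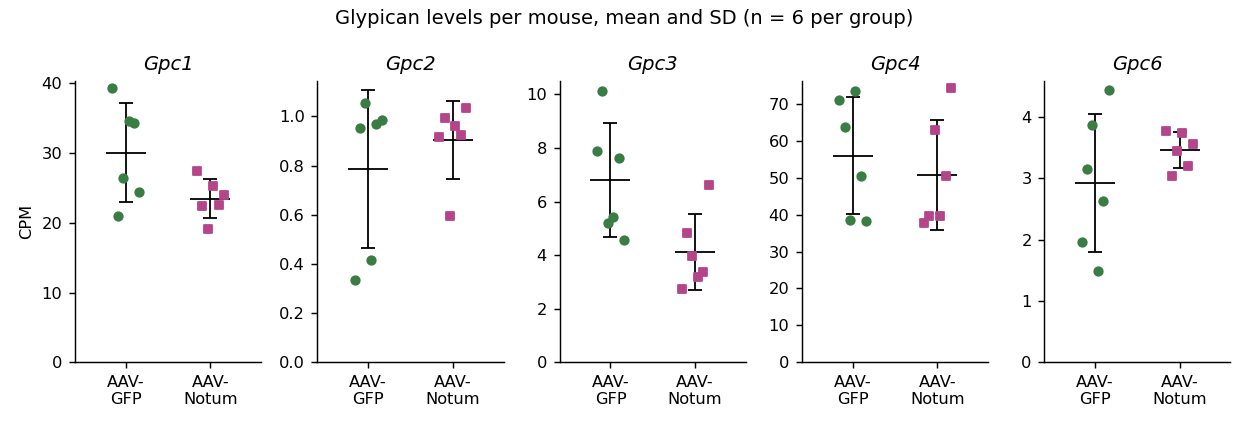
CPM of each detected glypican in each mouse (vertical axes start at 0 and differ between panels), circles for AAV-GFP and squares for AAV-Notum, with the mean as a bar and the SD as whiskers (n = 6 per group). Gpc3 is at 4.56 to 10.1 CPM in AAV-GFP and at 2.74 to 6.60 CPM in AAV-Notum mice, and the groups overlap in every panel.

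Gpc4 varied between mice almost in step with the adipocyte markers. The adipocyte score, over 12 markers such as Adipoq and Plin1, ran from 11.0 to 12.1 in the AAV-GFP group and from 11.0 to 12.0 in AAV-Notum mice. Its r with log2 CPM of Gpc4 was 0.965 over 12 mice and its rho 0.965, each with a permutation p of 2e-05 and an adjusted p of 6e-04 over the 30 relations. It was 0.983 within the AAV-GFP group and 0.951 within the AAV-Notum group, each with an exact permutation p of 0.00139 (n = 6). Leaving out the 2 mice farthest from the median score gave 0.957. With the score as a covariate, added once the values were known, the log2 fold change of Gpc4 was 0.07 with an unadjusted p of 0.324. These relations were chosen after the values were seen, and the genes of a library share its scaling.

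The lymphoid score went the other way for Gpc4, with r = -0.750 over 12 mice (permutation p = 5.6e-04, adjusted p = 0.0084) and rho = -0.853 (permutation p = 8.5e-04). In the 10 mice without AAV-GFP-2011 and AAV-GFP-2014, which are also the 2 mice farthest from the median score, r was -0.769. Gpc4 was at 71.0 CPM in AAV-GFP-2011 and at 73.4 CPM in AAV-GFP-2014, above all other AAV-GFP mice. Without these mice the log2 fold change of Gpc4 was 0.08, so its direction turned.

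Gpc6 (ENSMUSG00000058571, chromosome 14, 116925315 to 117976544) and Gpc2 (ENSMUSG00000029510, chromosome 5, 138273655 to 138280005) were the detected glypicans of lowest level. Gpc6 had 1.49, 2.89 and 4.43 CPM as the lowest, median and highest values in AAV-GFP mice (25 to 72 reads) and 3.04, 3.50 and 3.76 CPM in AAV-Notum mice (52 to 74 reads). Gpc2 had 0.336, 0.961 and 1.05 CPM in AAV-GFP mice (6 to 21 reads) and 0.597, 0.942 and 1.04 CPM in AAV-Notum mice (9 to 19 reads). The groups overlapped for both genes, and the lowest values of both were in AAV-GFP-2011 and AAV-GFP-2014, with 1.96 and 1.49 CPM of Gpc6 and 0.336 and 0.417 CPM of Gpc2. The log2 fold change of Gpc6 was 0.24 (95% interval -0.22 to 0.71, adjusted p = 0.579 from edgeR) and that of Gpc2 was 0.20 (95% interval -0.37 to 0.77, adjusted p = 0.702 from edgeR). Without AAV-GFP-2011 and AAV-GFP-2014 the estimates were -0.02 for Gpc6 and -0.13 for Gpc2. Of the exon bases of Gpc2, 2376 are shared with Gm43720 on the same strand, which was listed at 0 reads in all mice.

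The lymphoid score was related to Gpc6 with r = 0.876 (permutation p = 0.0026, adjusted p = 0.0195) and to Gpc2 with r = 0.837 (permutation p = 0.00943, adjusted p = 0.0452) over 12 mice. Both relations rested on AAV-GFP-2011 and AAV-GFP-2014. In the other 10 mice r was 0.266 for Gpc6 and -0.0943 for Gpc2. They were not particular to lymphoid markers, since the score of adipose progenitor markers gave r = 0.749 with Gpc6 and 0.751 with Gpc2 (adjusted p = 0.0452 each), and the adipocyte score gave r = -0.657 with Gpc6 (adjusted p = 0.0481). In the 10 mice these were -0.299, 0.261 and -0.432. Of the 30 relations, 9 had an adjusted p under 0.05 for r over 12 mice, 3 of Gpc4, 3 of Gpc6, 2 of Gpc2 and 1 of Gpc3.

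**Figure D4:**
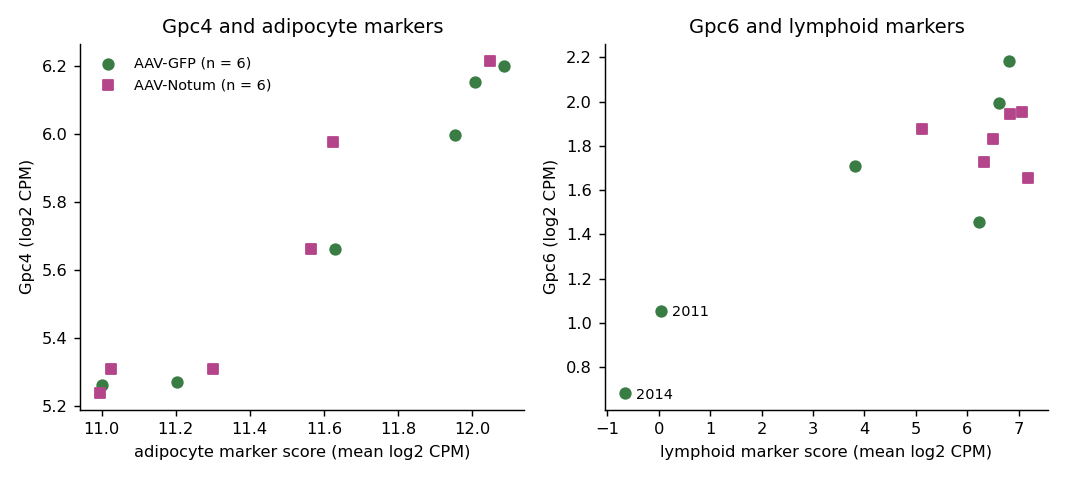
Left, log2 CPM of Gpc4 against the adipocyte marker score (mean log2 CPM of 12 markers) in each mouse. Right, log2 CPM of Gpc6 against the lymphoid marker score (15 markers), where AAV-GFP-2011 and AAV-GFP-2014 lie apart at the lower left. Circles are AAV-GFP and squares AAV-Notum mice, and r over 12 mice is 0.965 on the left and 0.876 on the right, or 0.266 without the labelled mice.

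Among the 15 pairs of members, 5 had a permutation p under 0.05 for r over 12 mice and 0 had an adjusted p under 0.05, the smallest being 0.0929. The pair of highest r was Gpc2 with Gpc6 (r = 0.794, permutation p = 0.00884, rho = 0.510, permutation p = 0.0947). In the 10 mice other than AAV-GFP-2011 and AAV-GFP-2014, 0 of the 15 pairs had a permutation p under 0.05, and Gpc2 with Gpc6 had r = 0.0595.

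The tested genes most like each member were those with the highest Pearson's r of log2 CPM over 12 mice after each group's mean was subtracted, given as a description since they are the extremes of 15585 genes. For Notum they were Cyp3a11, Mup20 and Apob (r = 0.846 to 0.849), which hepatocytes express. Each of them had a lower estimate in AAV-Notum mice, with log2 fold changes of -3.12 to -2.69. For Gpc3 the first was Cd34 (r = 0.936), a surface protein of endothelial and adipose progenitor cells, followed by Mab21l1 and Arfgap2 (both 0.927). Cd34 is among the 14 adipose progenitor markers, but their score had r = 0.00854 with Gpc3 over 12 mice (permutation p = 0.98). In the 10 mice without AAV-GFP-2011 and AAV-GFP-2014 this r was 0.463 (permutation p = 0.179). For Gpc4 they were Stau1, Dram1 and 2810006K23Rik (r = 0.987 to 0.993). For Gpc1 they were Tuba1b, St5 and Cdc42 (r = 0.915 to 0.948), where Tuba1b is a tubulin and Cdc42 a small GTPase of the cytoskeleton. For Gpc6 they were Orai3, Gm16685 and Kcnc1 (r = 0.956 to 0.967), and for Gpc2 Trmt10c, Bpifb2 and Gtpbp4 (r = 0.928 to 0.945).

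The genes that build, cut or work with glypicans were described in 7 lists of 99 genes, of which 74 passed the filter on low counts. At an adjusted p under 0.05 edgeR called 0 of the 74, and the smallest adjusted p was 0.102. At an unadjusted p under 0.05, 21 were lower in AAV-Notum mice and 1 was higher, where 9.54% and 4.64% of all tested genes were. DESeq2 was run without this filter, on all 99 list genes. It called 6 lower, Sfrp5, Hspg2, Nkd1, Dhh, Col18a1 and Pcsk5, against 2.18% of the 16401 genes that it gave an adjusted p. The median log2 fold change over all genes was 0.01. Of the lymphoid markers, 15 of 15 had higher estimates in AAV-Notum mice (median log2 fold change 0.99, 0 at an unadjusted p under 0.05). Over all genes 7981 of 15585 had higher estimates, and markers of one cell type are not independent of each other. Their summed level was 16.6 and 8.76 CPM in AAV-GFP-2011 and AAV-GFP-2014. The other AAV-GFP mice (362 to 1902 CPM) overlapped with the AAV-Notum mice (604 to 2631 CPM). With the lymphoid score as a covariate 11 of the 74 were lower at an unadjusted p under 0.05 and 0 were higher, where 4.9% and 4.13% of all genes were, and the part of lymphoid cells was not tested beyond such fits. The number lower was 9 with the endothelial score, with RNA integrity or without both AAV-GFP-2014 and AAV-GFP-2011, where 4.63% to 5.95% of all genes were lower. It was between 10 and 26 when single mice were left out, and the share of all genes moved with it, from 6.67% in one of the fits with 10 to 13.6% in the fit with 26 (without AAV-GFP-2022).

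The enzymes that make and modify heparan sulfate had medians near 0. Of the 11 genes of linkage and chain polymerization, 6 had lower and 5 higher estimates, with a median of -0.09. B3gat3, which adds the last sugar of the linkage region, had 37.2 ± 3.45 CPM in AAV-GFP and 43.0 ± 3.62 CPM in AAV-Notum mice (SD, n = 6 each; log2 fold change 0.21, adjusted p = 0.283 from edgeR). Extl3, which starts the heparan sulfate chain, had 265.5 ± 69.2 and 204.8 ± 30.3 CPM (log2 fold change -0.38, adjusted p = 0.347). Of 20 genes of sulfation, epimerization and trimming, 11 were tested, with a median of 0.05. At an unadjusted p under 0.05, where 9.54% of all genes were lower, 3 were lower. They included Glce, the epimerase that turns glucuronic into iduronic acid (log2 fold change -0.35, adjusted p = 0.292), and Sulf2, an endosulfatase that removes 6-O sulfates outside the cell (log2 fold change -0.45, adjusted p = 0.325). With the lymphoid score as a covariate the log2 fold changes were 0.13 for B3gat3, -0.049 for Extl3, -0.15 for Glce and -0.21 for Sulf2, each with an unadjusted p of 0.136 to 0.670.

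The other heparan sulfate proteoglycan cores had a median log2 fold change of -0.30 over 8 tested genes, 6 of them lower. Hspg2, the basement membrane proteoglycan perlecan, was at 972 ± 281 CPM in the AAV-GFP group and 560 ± 83.4 CPM in AAV-Notum mice (SD, n = 6 each), with 6 of 6 AAV-Notum mice under the mean of the AAV-GFP group. Its log2 fold change was -0.80 with a standard error of 0.19, and the adjusted p was 0.140 from edgeR and 0.0078 from DESeq2 (exact permutation p = 0.0130). Col18a1, the basement membrane collagen that gives endostatin, had a log2 fold change of -0.87 (adjusted p = 0.152 from edgeR, 0.0231 from DESeq2). With the endothelial score as a covariate these were -0.53 for Hspg2 and -0.64 for Col18a1, and with the lymphoid score -0.46 and -0.48.

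Of 10 genes of glypican processing and GPI release, 9 were tested, with a median of 0.02 and 5 higher estimates. The 4 with lower estimates were all at an unadjusted p under 0.05, where 9.54% of all genes were lower. These were the proprotein convertases Pcsk5, Pcsk6 and Furin and the phospholipase Gpld1. Convertases of this family cleave glypican core proteins, and Gpld1 cuts GPI anchors. Their exact permutation p was 0.0108, 0.0628, 0.0303 and 0.0844 in this order. Pcsk7, another convertase, had a log2 fold change of 0.02 (unadjusted p = 0.806 from edgeR). Pcsk5 was at 49.96 ± 20.2 CPM in AAV-GFP and 25.1 ± 8.46 CPM in AAV-Notum mice (SD, n = 6 each; log2 fold change -0.996, adjusted p = 0.166 from edgeR, 0.0233 from DESeq2). Pcsk6 was at 105.3 ± 34.4 and 69.3 ± 16.2 CPM (log2 fold change -0.60, adjusted p = 0.291 from edgeR). With the lymphoid score as a covariate the values were -0.62 for Pcsk5 (unadjusted p = 0.0298 from edgeR) and -0.22 for Pcsk6 (unadjusted p = 0.274). With the endothelial score they were -0.47 for Pcsk5 (unadjusted p = 0.0069 from edgeR) and -0.30 for Pcsk6 (unadjusted p = 0.209). For Pcsk5, Pcsk6, Furin and Gpld1, 6 of 6 AAV-Notum mice lay under the mean of the AAV-GFP group.

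Of the 21 genes of Wnt ligands, their lipidation and export, 10 were tested, with a median of -0.19 and 0 at an unadjusted p under 0.05. The 2 of smallest p were Wnt9a, a Wnt ligand (log2 fold change -0.53, adjusted p = 0.382), and Porcn, the acyltransferase that adds the lipid Notum removes (log2 fold change -0.41, adjusted p = 0.431), which were -0.16 and 0.02 with the lymphoid score as a covariate. The 14 tested feedback and secreted inhibitors of Wnt had a median of -0.03, with 8 lower and 6 higher estimates. At an unadjusted p under 0.05, 3 were lower and 0 higher, where 9.54% and 4.64% of all genes were. Dkk3 went the other way, with 6 of 6 AAV-Notum mice above the mean of the AAV-GFP group (log2 fold change 0.81, unadjusted p = 0.0658 from edgeR). Sfrp5, a secreted Wnt binder of adipocytes, was at 27.6 ± 20.02 CPM in AAV-GFP and 4.204 ± 1.41 CPM in AAV-Notum mice (SD, n = 6 each; log2 fold change -2.71 ± 0.55 as its standard error, adjusted p = 0.102 from edgeR, 5.19e-05 from DESeq2, exact permutation p = 0.0108). Nkd1, an inhibitor that Wnt signalling itself induces, had a log2 fold change of -1.04 (adjusted p = 0.140 from edgeR, 0.0137 from DESeq2). With the lymphoid score as a covariate the log2 fold changes were -1.83 for Sfrp5 (unadjusted p = 0.00131 from edgeR) and -0.82 for Nkd1, and without AAV-GFP-2011 and AAV-GFP-2014 that of Sfrp5 was -2.01. Axin2, another gene induced by Wnt, was at 15.8 ± 1.22 and 15.2 ± 1.75 CPM (SD, n = 6 each; log2 fold change -0.06, adjusted p = 0.734 from edgeR) and is named here outside the rule, after its values were seen.

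Of 13 Hedgehog genes, 11 were tested, with a median of -0.43, and 10 of the 11 had lower estimates, 7 of them at an unadjusted p under 0.05. Over all 15585 genes 7604 had lower estimates, and 9.54% were lower at this threshold. Dhh, the Desert hedgehog ligand, was at 2.88 ± 0.621 CPM in AAV-GFP and 1.45 ± 0.578 CPM in AAV-Notum mice (SD, n = 6 each; log2 fold change -0.99, adjusted p = 0.152 from edgeR, 0.0152 from DESeq2, exact permutation p = 0.00433). Gli3, a transcription factor of the pathway, was at 5.71 ± 1.02 and 4.23 ± 0.355 CPM (log2 fold change -0.43, adjusted p = 0.214 from edgeR, exact permutation p = 0.0108). With the lymphoid score as a covariate these were -0.93 for Dhh and -0.39 for Gli3. Among the genes at an unadjusted p under 0.05 were also the receptor Ptch1, the co-receptors Boc and Cdon and the signal transducer Smo, and 6 of 6 AAV-Notum mice lay under the mean of the AAV-GFP group for each of these 4. Schwann cells, a known source of Dhh, had 10 listed markers, 9 of them with lower estimates and a median log2 fold change of -0.40, 0 of them at an unadjusted p under 0.05, and their summed level was 325.5 to 805.2 CPM in the AAV-GFP group and 328.6 to 775.3 CPM in AAV-Notum mice, with none at 0. The part of these cells in the Hedgehog values was not tested.

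**Figure D5:**
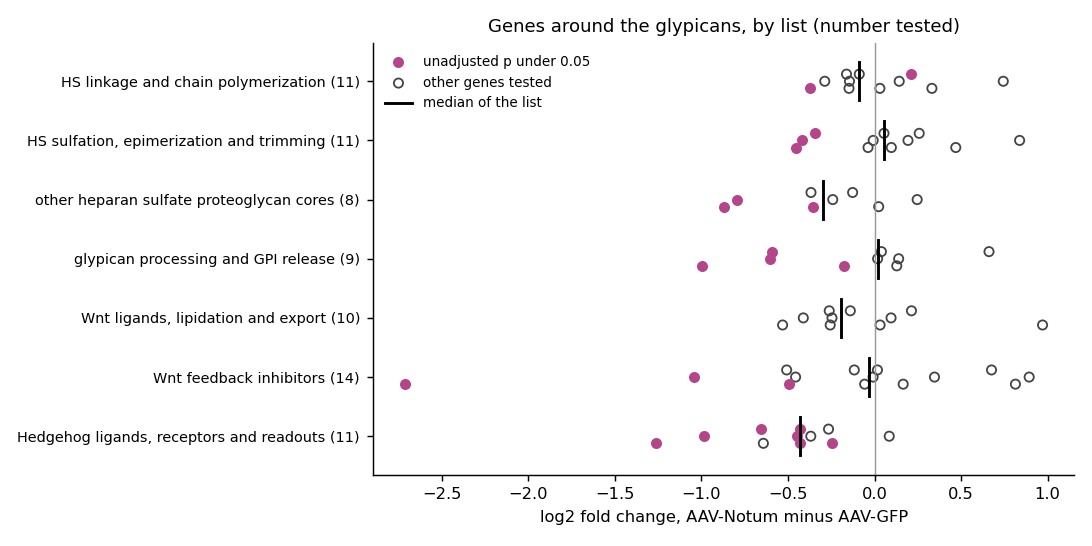
Log2 fold change (AAV-Notum minus AAV-GFP, horizontal axis) of each tested gene of the 7 lists, one row per list with the number tested, filled where the unadjusted p is under 0.05 and open otherwise, with a bar at the median of the list. The medians run from -0.43 for the Hedgehog genes to 0.05 for heparan sulfate sulfation, and Sfrp5 lies farthest to the left at -2.71.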

How the data were processed

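RNA-seq of iWAT from 12 mice was analysed. According to the processing notes, the authors mapped single-end HiSeq4000 reads with STAR 2.3.1 to mm10. The deposited raw table holds read counts per gene without normalization, and the normalized table of the authors holds log2 values (log2 of reads divided by a size factor, plus 1), from which whole reads were recovered (tolerance 0.02). The counting program, its annotation and its strand setting were not given in the sources used here. The members and gene lists were chosen with earlier results of these data known.

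Counts were tested in R 4.3.3 with edgeR 4.0.16 (filterByExpr with minimum count 10 and minimum total count 15, TMM, quasi-likelihood test, Benjamini-Hochberg adjustment over 15585 genes, threshold 0.05). Log2 CPM carry a prior count of 2. Fold changes are AAV-Notum over AAV-GFP. Exact permutation tests were two-sided, and correlations over 10 or more mice used 100000 resamples. DESeq2 1.42.0 and limma 3.58.1 were alternatives, with other filters and scalings, covariates and mice left out. On simulated counts of 15585 genes, used to test the fits, edgeR found 51% of the genes changed by a log2 fold change of 1 and 8% of those changed by 0.5. Exon lengths are those of GENCODE vM21, in which 54069 of 54134 gene IDs were found. Named genes are the members, in each list the genes with an adjusted p under 0.05 or else the 2 of smallest p, and the 3 genes most like each member. Genes named beyond this rule were chosen after their values were seen. Some values of single genes are not reported here.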

Additional observations from a re-analysis of the deposited data

Results flagged for a closer look

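Single mice were checked within each group of 6 for the 7 members and the 14 named genes of the lists, by comparing the gap to the nearest mouse with the range of the group. Of 40 groups checked, 2 had a mouse set apart, and chance alone flags about 1 in 20. Gpc2 was at 0.597 CPM in AAV-Notum-2033 (9 reads), where the other AAV-Notum mice had 0.915 to 1.04 CPM. Porcn was at 13.5 CPM in AAV-Notum-2042, where the other AAV-Notum mice had 7.22 to 9.55 CPM. The causes were not tested.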

How the results depend on the processing

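None of the alternatives gave an adjusted p under 0.05 for a glypican, and Notum passed with DESeq2 (log2 fold change 4.66) and with the hepatocyte score as a covariate (6.42). Its estimate was 3.11 with limma-voom (unadjusted p = 0.0767), 2.57 with limma on the normalized values of the authors (0.0458), 3.83 with RNA integrity as a covariate (0.0663) and 3.56 with the endothelial score (0.0437). The lymphoid score as a covariate and leaving out the 2 mice poor in lymphoid transcripts (AAV-GFP-2011, AAV-GFP-2014) turned the direction of Gpc2 (-0.17 and -0.13), Gpc4 (0.24 and 0.083) and Gpc6 (-0.083 and -0.024). Gpc4 also turned with the adipocyte score (0.070) or the endothelial score (0.20) as a covariate, and Porcn with the lymphoid score (0.020). The causes were not tested.

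Genes called over the whole table, higher and lower, were 0 and 8 in the main test, 79 and 357 with DESeq2, 1 and 13 with RLE size factors, 1 and 14 with at least 10 counts in every mouse, 3 and 28 with the hepatocyte score and 39 and 191 with the adipocyte score. The count of lower genes was 5 with at least 1 count in all, 4 with the lymphoid score, 4 on the normalized values of the authors, 4 with the endothelial score, 1 without the mice poor in lymphoid transcripts, and 0 without AAV-Notum-2032 and AAV-Notum-2041. On recovered reads 1 gene was higher. Leaving out single mice gave 0 to 12 higher and 1 to 146 lower, the most without AAV-GFP-2022. Of the list genes, 6 were called lower with DESeq2, 3 with the adipocyte score, and 0 to 3 without single mice (3 without AAV-GFP-2022). Without single mice the log2 fold changes were 3.90 to 5.17 for Notum, -0.44 to -0.26 for Gpc1, 0.05 to 0.30 for Gpc2, -0.91 to -0.58 for Gpc3, -0.28 to -0.05 for Gpc4 and 0.11 to 0.40 for Gpc6. Without division by length the order of the glypican levels held in 10 of 12 mice, with Gpc3 below Gpc6 in AAV-Notum-2031 and AAV-Notum-2034. Of the member pairs, 0 passed the adjusted threshold over 12 mice and 0 without AAV-GFP-2011 and AAV-GFP-2014. Notum was not tested with at least 10 counts in every mouse or on recovered reads, and Gpc2 not under the former. The depth limits Notum and Gpc2, each with under 22 reads in most mice. No paired analysis was possible because the mouse numbers are not shared between the groups.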
